A study of Rattus norvegicus with 6 samples.

Results

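Mfrp, C1qtnf5, Prss56 and Tmem98 are 4 genes tied to the growth of the eye or to the pigment epithelium, and they were followed in the retinas of rats whose eyes had been injected into the vitreous. They were taken by gene name from the 34335 genes of the deposited count table, and all 4 were found and passed the filter on low counts. The set is treated as chosen by the difference of Mfrp between DMP and saline in these libraries, and the other members are joined to it by their position or their ties to eye length, with results of these data known. The values of DMP against saline are therefore a description of all 4, with no test.

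The retinas came from wild-type BN rats, a pigmented strain, and each eye received 2 µL of either saline or DMP. DMP is a cationic micelle known here only by this code, given at 10 mg/mL in water, so the groups differ in vehicle as well as in micelle. Each group had 3 libraries, numbered 30, 31 and 33 in both. The labels do not say that these came from separate animals, so any p-value speaks of the scatter among these libraries, which could be technical. No source used here gives the age, or the time from injection to collection. All eyes were punctured near the limbus, close to the ciliary body, and all were treated with levofloxacin gel.

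Eye length is set by signals that pass from the retina through the pigment epithelium and choroid to the sclera. When they fail early, the eye stays short and farsighted, a condition called nanophthalmos. Mfrp encodes a membrane protein with a frizzled-related domain, made in the retinal pigment epithelium and the ciliary epithelium, and its loss in people causes nanophthalmos. C1qtnf5 encodes a secreted protein with a C1q domain, lies directly downstream of Mfrp, and in human and mouse shares a bicistronic transcript with it. Variants of C1QTNF5 in people cause a late-onset retinal degeneration. Prss56 encodes a secreted serine protease, made in mouse retina by Müller glia, and Tmem98 encodes a membrane protein that binds the transcription factor Myrf and blocks its self-cleavage. Variants of both genes are known in people with nanophthalmos.

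On mRatBN7.2, the build of the deposited table, Mfrp lies on the plus strand of chromosome 8 from 44445636 to 44450859. C1qtnf5 follows on the same strand from 44450934 to 44453075, with 74 bases between them. Prss56 lies on the plus strand of chromosome 9 from 87842806 to 87859978, and Tmem98 on the plus strand of chromosome 10 from 65796173 to 65807082. None of the 4 overlaps another gene of the deposited table. Reads of a transcript that spans Mfrp and C1qtnf5 would be divided between them, by a counting method that no source used here names.

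RefSeq start sites were given for 3 of the 4 members, and the 250 bases upstream are shown for Mfrp, which heads the pair of neighbours and differed most between groups, and for Tmem98, whose groups overlapped. Both are from GRCr8, a later build than that of the counts, on the plus strand, at chr8:53342284-53342533 and chr10:66293645-66293894. Capitals mark matches on either strand to TAATCC, the core bound by OTX and CRX homeodomain factors, to CATGTG, an E-box of the kind bound by MITF, or to CACGTG, the palindromic E-box; these motifs do not overlap here.
Mfrp: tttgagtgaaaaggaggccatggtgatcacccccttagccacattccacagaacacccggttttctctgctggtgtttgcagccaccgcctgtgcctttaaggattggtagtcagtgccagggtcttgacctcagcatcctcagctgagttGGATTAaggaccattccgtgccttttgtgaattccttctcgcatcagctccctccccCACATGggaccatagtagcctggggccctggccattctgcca
Tmem98: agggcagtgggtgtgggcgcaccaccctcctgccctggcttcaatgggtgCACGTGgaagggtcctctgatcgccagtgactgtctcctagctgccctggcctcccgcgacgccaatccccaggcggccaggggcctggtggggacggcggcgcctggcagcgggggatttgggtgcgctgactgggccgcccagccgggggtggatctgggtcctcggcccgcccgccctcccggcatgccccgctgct

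The Mfrp window held GGATTA, the reverse complement of TAATCC, 99 bases before the start, and CACATG, the reverse complement of CATGTG, 42 bases before it. The Tmem98 window held CACGTG 200 bases before the start. TAATCC occurred in 6.34% of the 33469 RefSeq windows of this length, CATGTG in 12.1% and CACGTG in 5.59%. The 7 windows of Prss56, which has several starts, held 0 matches. These matches describe the letters in each window only.

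Counts per library totalled 47842234 to 53255925. Expression was compared with edgeR over the 18571 genes with enough counts, and levels are given as CPM, counts relative to the scaled library size. DMP 30 stood apart from the rest, at 67.5 on the leading principal component where the other libraries lay between -27.3 and 3.03. Rn18s, the 18S ribosomal RNA that selection for polyadenylated RNA is meant to remove, took 0.0439% to 0.159% of counts in DMP and 0.0121% to 0.0338% in saline; its part in the results below was not tested. Photoreceptor genes, which define the retina, were abundant. Gnat1, the rod transducin subunit, was at 13614.1 ± 517.9 CPM with saline and 13440.6 ± 450.6 with DMP (mean ± SD, n = 3 libraries per group, as throughout).

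Mfrp was lower in every DMP library than in any saline library. It was at 18.0, 9.51 and 11 CPM in saline 30, 31 and 33, against 3.93, 3.56 and 3.69 CPM in DMP 30, 31 and 33. The saline libraries differed among themselves by up to 1.89-fold, with saline 30 highest, while the DMP libraries lay within 1.11-fold of each other. The means were 12.8 ± 4.54 and 3.73 ± 0.191 CPM, a fitted log2 fold change of -1.78 (SE 0.215), or 3.44-fold lower. Without saline 30, the highest library, the log2 fold change was -1.46. Of the 18571 genes tested, 62 had a more negative log2 fold change.

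C1qtnf5, the neighbour, was lower by less. It was at 3.52, 2.03 and 1.88 CPM in the saline libraries and at 1.41, 1.58 and 1.80 CPM in the DMP libraries, from counts of 74 to 179. The groups did not overlap, but the lowest saline library and the highest DMP library were close together. The means were 2.48 ± 0.907 and 1.6 ± 0.193 CPM, a log2 fold change of -0.63 (SE 0.267). This rested largely on saline 30, again the highest library, without which the log2 fold change was -0.30.

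Prss56, the protease, was the most abundant of the 4. It was at 45.7, 52.0 and 52.4 CPM in saline and at 33.3, 38.4 and 47.1 CPM in DMP, from counts of 1745 to 2788. DMP 33 lay inside the saline range and above saline 30, while DMP 30 and 31 lay below all saline libraries. The means were 50.0 ± 3.72 and 39.6 ± 6.98 CPM, a log2 fold change of -0.34 (SE 0.111). It was -0.23 without DMP 30 and -0.48 without DMP 33.

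Tmem98, the Myrf-binding membrane protein, did not share this direction. It was at 7.26, 6.93 and 5.94 CPM in saline and at 9.85, 5.96 and 6.58 CPM in DMP. DMP 30 was above every other library, and the other DMP libraries lay within the saline range. The log2 fold change was 0.15 (SE 0.186), and it turned to -0.10 without DMP 30, the library that stood apart over all genes.

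**Figure D1:**
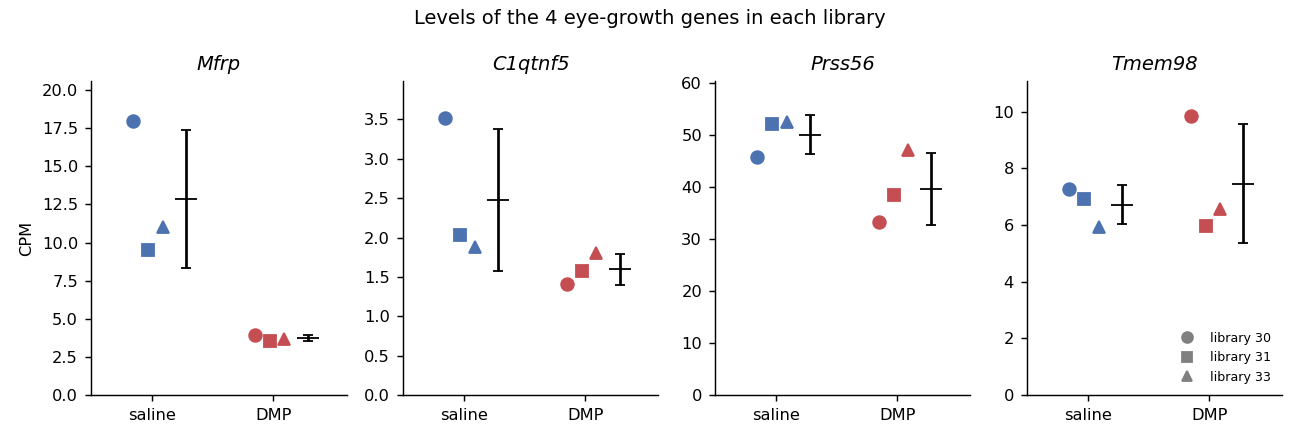
CPM of Mfrp, C1qtnf5, Prss56 and Tmem98 in each library (points, shape by library number), with mean and SD of the 3 libraries per group as bars. Mfrp separates the groups widely (9.51 CPM or more in saline, 3.93 or less in DMP), C1qtnf5 narrowly, and Prss56 and Tmem98 overlap.

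With the Benjamini-Hochberg adjusted p threshold of 0.05 in edgeR's quasi-likelihood test, 4 of 18571 genes passed, 0.0215% of those tested, and Mfrp was 1 of them and the single lower one (0.00538% lower, 0.0162% higher). The other 3 members did not pass. Groups did not overlap for 2 of the 4 members, Mfrp and C1qtnf5, against 9.3% of all genes tested (4.88% for genes lower in DMP). As the members were chosen with this comparison known, these counts carry no weight of their own. Mfrp was past the threshold with DESeq2 and not with limma-voom. In edgeR it was no longer past the threshold without saline 33 or without DMP 31, at log2 fold changes of -1.88 and -1.75.

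Levels of different genes were compared on the authors' FPKM, which divides by transcript length. In saline Prss56 stood at 12.3 ± 0.986 FPKM, above 77.2% of the 24744 genes in that table. Mfrp stood at 1.69 ± 0.590, Tmem98 at 1.38 ± 0.130 and C1qtnf5 at 1.37 ± 0.498 FPKM, and these neighbours in the order did not differ beyond their spread. In DMP the order was Prss56 at 9.74 ± 1.83, Tmem98 at 1.53 ± 0.413, C1qtnf5 at 0.874 ± 0.117 and Mfrp at 0.488 ± 0.022 FPKM. Mfrp was thus the last of the 4 in DMP.

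The ratio of the 2 neighbours on chromosome 8 shifted accordingly. C1qtnf5 FPKM divided by Mfrp FPKM was 0.823, 0.886 and 0.720 in saline 30, 31 and 33, against 1.49, 1.86 and 2.04 in DMP 30, 31 and 33. The groups did not overlap, at 0.810 ± 0.0839 and 1.80 ± 0.282. As Mfrp was chosen by its difference between groups, the ratio repeats that difference and is a description, with no test. Saline 30, high for each gene alone, was not apart in the ratio. The nearest gene on each side of the pair had a log2 fold change near 0. Rnf26, a ubiquitin ligase gene on the minus strand 1475 bases from C1qtnf5, was at 20.2 and 20.6 CPM in saline and DMP (log2 fold change 0.02, SE 0.120). Usp2, a deubiquitinase gene 5967 bases from Mfrp, had a log2 fold change of 0.01 (SE 0.0998). Farther out, Mcam, a cell adhesion gene 26315 bases from C1qtnf5, was at 13.3 and 16.6 CPM (log2 fold change 0.32, SE 0.125).

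**Figure D2:**
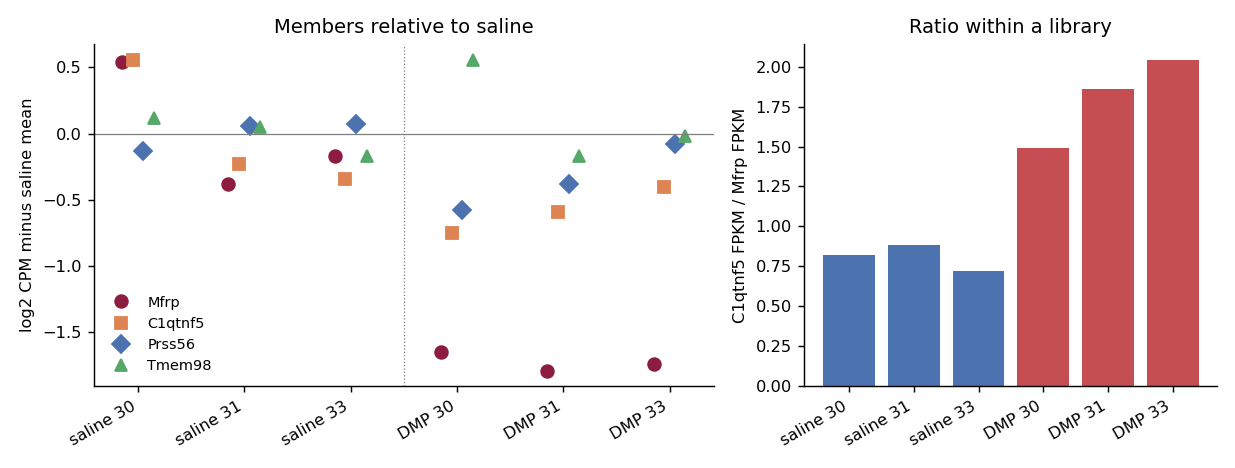
Left, log2 CPM of each member minus its saline mean, by library. Right, C1qtnf5 FPKM divided by Mfrp FPKM in each library (bars). Mfrp lies between -1.79 and -1.65 in all DMP libraries, C1qtnf5 between -0.75 and -0.40, and the ratio is 0.886 or less in saline and 1.49 or more in DMP.

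Whether the members moved together was asked among libraries of 1 group, after subtracting each group's mean log2 CPM, since the difference between groups had chosen them. Over the 6 libraries Mfrp and C1qtnf5 had a Pearson r of 0.852 (exact permutation p = 0.306, 36 arrangements within groups, two-sided) and a Spearman coefficient of 0.771 (exact p = 0.306). This relation rested on saline 30, where both genes were high, for without that library r was -0.563. Leaving out any other library in turn kept r between 0.857 and 0.938. Prss56 and Tmem98 lay on opposite sides, with r = -0.686 (exact permutation p = 0.361) and Spearman coefficient = -0.600 (exact p = 0.361). This rested on DMP 30, without which r was -0.0382.

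Mfrp and Prss56 had r = -0.455 (exact permutation p = 0.111) and Spearman coefficient = -0.543 (exact p = 0.250), with r between -0.801 and -0.284 when each library was left out. Mfrp and Tmem98 had r = 0.319 (exact permutation p = 0.306) and Spearman coefficient = 0.543 (exact p = 0.250), with r between 0.239 and 0.531. C1qtnf5 had r = -0.0738 with Prss56 (exact permutation p = 0.750; Spearman coefficient = -0.200, exact p = 0.694) and 0.0375 with Tmem98 (exact permutation p = 0.889; Spearman coefficient = 0.200, exact p = 0.694). Neither kept its sign, since without saline 30 they were 0.946 and -0.583. Adjusted over the 6 pairs by Benjamini-Hochberg, the exact permutation p-values ran from 0.542 to 0.889 for r and from 0.542 to 0.694 for the Spearman coefficient. No pair passed, and the design could not have passed a single pair, since the smallest exact p of 36 arrangements, 0.0278, becomes 0.167 after adjustment. Whether the 4 genes move together among libraries of 1 group cannot be settled with these libraries.

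The genes most like each member over all 6 libraries were taken by Pearson r of log2 CPM among 12172 genes with a mean of at least 5 CPM. For Mfrp they were Swsap1 (r = 0.991), Egf (0.990), Riok2 (0.987), Dnajc30 (0.983) and Brap (0.977). For C1qtnf5 they were Osbpl5 (0.981), Nt5dc2 (0.972), Zbtb47 (0.972), Lgi3 (0.967) and Armh4 (0.967). Their log2 fold changes were -0.23 to -0.10 for the former 5, beside -1.78 for Mfrp, and -0.31 to -0.10 for the latter 5, beside -0.63 for C1qtnf5, or -0.30 without saline 30. Prss56 was most like Hspa12b (0.988), Hopx (0.987), Tmbim1 (0.982), Tspan18 (0.982) and Zfp84 (0.981), and among the 5 most like Tmem98 were Helz2 (0.992), Frmpd1 (0.978), Gng7 (0.976) and Cep164 (0.976). After subtracting group means, r was 0.726 to 0.944 for the genes like Mfrp, 0.946 to 0.989 for C1qtnf5, 0.959 to 0.975 for Prss56 and 0.975 to 0.992 for Tmem98. With 6 libraries high values are common, and 79 to 102 genes reached an r of 0.9 with each member.

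The members' own cell types were read next, in marker lists chosen with earlier results of these data known. In bulk tissue, fewer cells of a type and less RNA per cell cannot be told apart. For the ciliary epithelium, the double layer at the rim of the retina that makes aqueous humour and anchors the lens zonule, all 9 tested markers had a log2 fold change below 0. The median was -0.93, beside -0.0001 over all genes tested. In edgeR 0 passed the threshold over all genes, and 7 were lower at an unadjusted p under 0.05. Of all genes tested 4.64% had such a p, 2.56% as lower. With DESeq2 2 of the markers passed, and with limma-voom 0. Over all genes, 90 of 24740 passed with DESeq2, 56 of them lower, and 4 of 18571 with limma-voom. These shares over all genes are to be set beside the counts of every list below. Summed over the 10 listed markers, CPM were 317.9, 243.4 and 316.3 in saline 30, 31 and 33, against 97.5, 122.9 and 194.8 in DMP 30, 31 and 33. The groups did not overlap.

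Lrp2, the endocytic receptor megalin, was at 45.3 ± 3.89 CPM with saline and 28.3 ± 3.94 with DMP (log2 fold change -0.68, SE 0.103, edgeR adjusted p = 0.0626). Zic1, a zinc finger transcription factor, was at 9.11 ± 1.21 and 4.77 ± 1.17 CPM (adjusted p = 0.125 in edgeR). Col9a1, a collagen chain of the vitreous, was at 112.1 ± 16.6 and 61.0 ± 19.7 CPM, and Wfdc1, a ciliary margin gene, at 11.3 ± 1.54 and 3.86 ± 2.45 CPM. Optc, the vitreous proteoglycan opticin and a defining marker, was chosen after its values were seen. It was at 43.9 ± 8.83 CPM with saline and 9.62 ± 9.48 with DMP.

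As a percentage of the summed ciliary markers, Mfrp was 5.67, 3.91 and 3.48 in saline 30, 31 and 33, against 4.03, 2.89 and 1.9 in DMP 30, 31 and 33, so that the groups overlapped. Mfrp was at nearly the same CPM in the 3 DMP libraries, whereas the ciliary sum ran from 97.5 CPM in DMP 30 to 194.8 in DMP 33. The ratio to a single marker depended on which was used. Mfrp CPM divided by Lrp2 CPM was 0.281 ± 0.0828 in saline and 0.134 ± 0.0236 in DMP, without overlap. Divided by Zic1 CPM it was 1.4 ± 0.37 and 0.811 ± 0.177, and by Col9a1 CPM 0.113 ± 0.0291 and 0.0657 ± 0.0224, both without overlap. Divided by Wfdc1 CPM it was 1.11 ± 0.253 and 1.38 ± 1.06, with overlap. There DMP 30 was at 2.58, and DMP 31 and 33 at 0.977 and 0.576. Divided by Optc CPM it was 0.293 ± 0.0839 and 1.19 ± 1.49, with overlap, and with DMP 30 at 2.9. C1qtnf5 as a percentage of the same sum was 0.846 ± 0.256 in saline and 1.22 ± 0.269 in DMP, with overlap. The part of the ciliary markers in the lower Mfrp level was not tested.

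For the pigment epithelium, which nourishes photoreceptors and recycles their retinoids, the picture differed. The median log2 fold change of 12 markers was 0.13, with 5 below 0, and -0.33 without DMP 30. Over all genes 0 passed the edgeR threshold, 2 were lower at an unadjusted p under 0.05, and 0 passed with DESeq2 or limma-voom. Rpe65, the retinoid isomerase that defines this tissue, was at 6.64 ± 2.23 CPM with saline and 8.95 ± 5.51 with DMP. The higher DMP mean came from DMP 30, at 15.2 CPM. DMP 31 and 33, at 4.86 and 6.78 CPM, lay within the saline range of 4.75 to 9.1. Kcnj13, a potassium channel of the pigment epithelium, was at 2.91 ± 0.817 and 1.39 ± 0.233 CPM (log2 fold change -1.06, SE 0.252, edgeR adjusted p = 0.253). Pmel, a melanosome protein, was at 19.4 ± 12.4 and 8.07 ± 3.81 CPM, and Rlbp1, a retinoid carrier that Müller glia also make, at 279.3 ± 26.5 and 265.6 ± 9.86 CPM. Rlbp1 took 74.5% to 86.9% of the list's summed CPM.

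Without Rlbp1 and Pmel, a choice made after seeing the data, the pigment epithelium markers summed to 43.0, 37.5 and 53.4 CPM in saline 30, 31 and 33, against to 79.7, 33.9 and 35.5 CPM in DMP 30, 31 and 33. DMP 30 was highest and the groups overlapped. Mfrp CPM divided by Rpe65 CPM was 2.96, 2.00 and 1.21 in saline and 0.258, 0.732 and 0.545 in DMP, without overlap. As a percentage of all 12 markers Mfrp was 3.69 ± 0.977 in saline and 1.16 ± 0.0615 in DMP. Set against Rpe65 or against the sum of all 12, which is mostly Rlbp1, Mfrp was lower in every DMP library than in any saline library. Ratios to the other single markers of this list were not taken. The part of the pigment epithelium in the lower Mfrp level was not tested. C1qtnf5 as a percentage of all 12 markers was 0.711 ± 0.190 and 0.5 ± 0.0958, without overlap. As a percentage of the markers without Rlbp1 and Pmel it was 5.71 ± 2.35 and 3.83 ± 1.80, with overlap.

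Melanin genes are active in the pigment epithelium, the pigmented ciliary epithelium, the iris and choroidal melanocytes. They had a median log2 fold change of -0.58 over 9 tested, 6 of them below 0. The median was -1.31 without DMP 30 and -0.24 without saline 30. None passed in edgeR (0 over all genes), 4 were lower at an unadjusted p under 0.05 (Tyr, Tyrp1, Pmel and Mlana), 1 passed with DESeq2 and 0 with limma-voom. Summed over the 10 listed melanin genes, CPM were 126.9, 54.1 and 66.6 in saline 30, 31 and 33, against 55.8, 40.4 and 36.4 in DMP 30, 31 and 33. Saline 30 was the highest library here, as it was for Mfrp and C1qtnf5. Tyrp1, a melanosomal enzyme, was at 24.4 ± 15.0 and 7.56 ± 0.949 CPM, and Mfrp CPM divided by Tyrp1 CPM was 0.581 ± 0.131 and 0.498 ± 0.0611, with overlap. Tyr, tyrosinase, was at 1.9 ± 1.29 and 0.218 ± 0.176 CPM, and Dct at 19.9 ± 7.84 and 13.3 ± 5.46 CPM. As a percentage of the whole melanin sum, Mfrp was 16.1 ± 1.74 in saline and 8.66 ± 1.55 in DMP, without overlap.

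**Figure D3:**
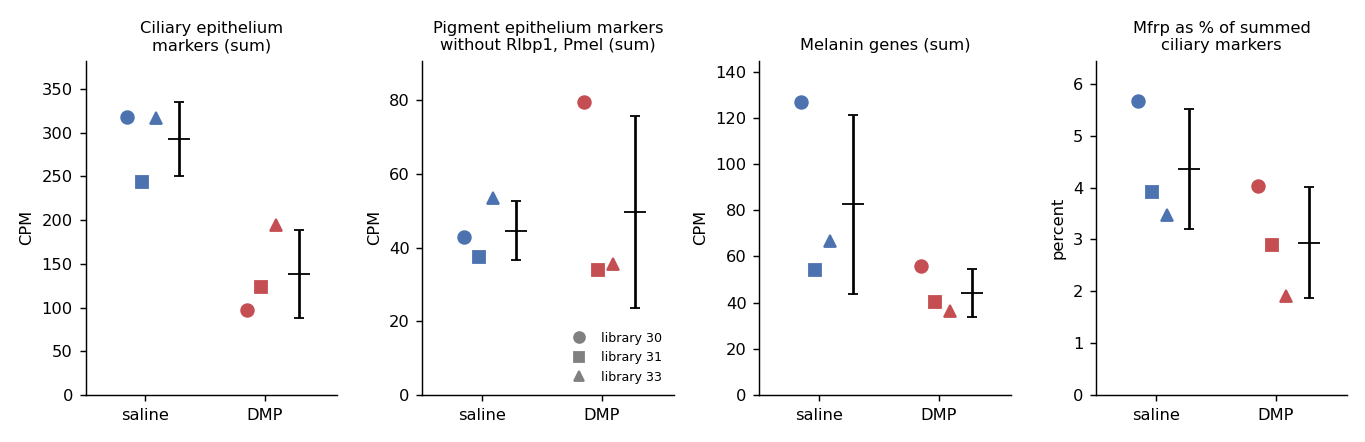
Summed CPM of ciliary epithelium markers, of pigment epithelium markers without Rlbp1 and Pmel, and of melanin genes, and Mfrp as a percentage of the summed ciliary markers, in each library (points) with mean and SD of 3 libraries per group. The ciliary sums do not overlap (243.4 CPM or more in saline, 194.8 or less in DMP), whereas the other 3 measures overlap.

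Markers of other tissues that a dissection can carry in were counted the same way, and in edgeR 0 genes of these lists passed over all genes. Of 9 fibroblast genes all had a log2 fold change below 0 (median -1.28). At an unadjusted p under 0.05, 6 were lower, beside 2.56% of all genes tested, with 0 passing in DESeq2 or limma-voom. Their summed CPM were 136.0 to 165.3 in saline and 40.6 to 95.0 in DMP, and Kera, a keratocyte marker, was at 0 in all 6 libraries. Among them Ogn, a small proteoglycan, was at 24.3 ± 7.22 and 7.97 ± 4.73 CPM, and Fmod, another, at 27.0 ± 5.50 and 11.1 ± 6.16 CPM. Of 13 lens genes 11 were below 0. Their median was -0.62, and it was -2.06 without DMP 31 and -0.22 without saline 33. At an unadjusted p under 0.05, 4 were lower, while 1 passed with DESeq2 and 0 with limma-voom. Crygd, a crystallin of lens fibres, was at 4.04 ± 1.81 and 0.929 ± 0.658 CPM. Cryaa, the most abundant of the lens genes, was not lower, at 9.51 ± 9.23 and 10.0 ± 13.5 CPM, with DMP 31 highest at 25.4. The sums of all 16 listed lens genes overlapped, at 26.4 to 55.2 CPM in saline and 10.4 to 46.6 in DMP. The 4 tested smooth muscle genes had a median of -0.25, with 1 lower at an unadjusted p under 0.05. In DESeq2 and limma-voom 0 of them passed. All 6 listed smooth muscle genes summed to 32.2 to 36.9 CPM in saline and 27.4 to 31.3 in DMP, without overlap. The part of these tissues in the members' values was not tested.

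Müller glia, the source of Prss56 in mouse retina, were close to level. The median log2 fold change of 12 markers was -0.05 and their summed CPM overlapped between groups. By edgeR 0 passed over all genes, 1 was lower and 1 higher at an unadjusted p under 0.05, 1 passed with DESeq2 and 0 with limma-voom. Vim, an intermediate filament that fibroblasts and lens also make, was at 137.3 ± 5.34 CPM with saline and 105.5 ± 5.94 with DMP (log2 fold change -0.38, SE 0.0540, edgeR adjusted p = 0.0582), and glutamine synthetase (Glul) had a log2 fold change of -0.05 (SE 0.0490). Prss56 as a percentage of the summed markers was 0.793, 0.934 and 0.953 in saline 30, 31 and 33, against 0.622, 0.718 and 0.839 in DMP 30, 31 and 33. The groups overlapped through DMP 33, as they did for Prss56 itself. The 10 photoreceptor genes had a median of -0.01, with 0 at an unadjusted p under 0.05 in edgeR and 0 passing in edgeR, DESeq2 or limma-voom.

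Other genes whose loss gives small eyes mostly lay near 0. Of 21 tested in that list the median log2 fold change was -0.04. In edgeR 0 passed over all genes, 3 were lower at an unadjusted p under 0.05 (Kcnj13, Bmp4 and Aldh1a3), and 0 passed with DESeq2 or limma-voom. Bmp4, a growth factor of the ciliary margin and dorsal retina, was at 2.26 ± 0.557 CPM with saline and 0.897 ± 0.433 with DMP, and Aldh1a3, an enzyme that makes retinoic acid, at 4.01 ± 0.989 and 2.46 ± 0.387. Smoc1, a matrix protein that restrains BMP signals, had a log2 fold change of -0.22 (SE 0.103). Myrf, the partner of Tmem98 and itself a nanophthalmos gene, was at 3.99 ± 0.493 and 4.27 ± 0.447 CPM (log2 fold change 0.10, SE 0.161). Crb1, a polarity protein of photoreceptors and Müller glia, had a log2 fold change of -0.02 (SE 0.0433), and Best1, a chloride channel of the pigment epithelium, was scarcely detected, at 0.487 ± 0.247 and 0.474 ± 0.217 CPM. Myelin genes, which Myrf drives in oligodendrocytes, had a median of 0.08 over 7 tested, with 0 at an unadjusted p under 0.05 in edgeR and 0 passing in edgeR, DESeq2 or limma-voom.

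Among genes of the opposite condition, myopia, in which the eye grows too long, 32 were tested and the median was -0.04. In edgeR 0 passed over all genes, 3 were lower at an unadjusted p under 0.05 (Lrp2, Fbn1 and Col2a1), 2 passed with DESeq2 and 0 with limma-voom. Fbn1, the fibrillin of zonule fibres, was at 121.7 ± 26.1 CPM with saline and 40.4 ± 24.0 with DMP, and Col2a1, the main collagen of the vitreous, at 133.6 ± 18.7 and 102.9 ± 11.6. Zic2, a zinc finger factor, was at 9.26 ± 1.82 and 6.55 ± 2.41 CPM. Gjd2, the gap junction protein connexin 36 of retinal neurons, had a log2 fold change of 0.05 (SE 0.0587). Of 25 retinal signals held to guide eye growth the median was -0.08, with 0 past the threshold in edgeR, DESeq2 or limma-voom and 4 lower at an unadjusted p under 0.05 in edgeR, Bmp2, Bmp4, Aldh1a1 and Drd1. Bmp2, a growth factor, was at 2.16 ± 0.472 CPM with saline and 1.06 ± 0.199 with DMP, and Th, the enzyme that limits dopamine synthesis, at 12.2 ± 0.316 and 11.2 ± 0.277.

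By protein family, Mfrp had a more negative log2 fold change than the other frizzled-domain genes. As Mfrp was chosen by its difference between DMP and saline, this is a description, with no test. Of 19 others tested, which include the Wnt receptors of the frizzled family and their secreted antagonists, the median was -0.19 and the range -0.58 to 0.18. With edgeR 0 passed over all genes, 2 were lower at an unadjusted p under 0.05, 1 passed with DESeq2 and 0 with limma-voom. The most negative was Col18a1, the basement membrane collagen that yields endostatin, at 54.8 ± 6.60 CPM with saline and 36.7 ± 7.37 with DMP (log2 fold change -0.58, SE 0.129). Ror1, a receptor tyrosine kinase for Wnt5a, followed at -0.52 (SE 0.212), while Frzb, a secreted Wnt antagonist, was at 0.09 (SE 0.0511) and the receptor Fzd3 at -0.19 (SE 0.104). Of 13 C1q-domain genes beside C1qtnf5 the median was 0.03, with 0 past the threshold in edgeR, DESeq2 or limma-voom and 1 lower at an unadjusted p under 0.05 in edgeR. That was C1qtnf6, a secreted relative of C1qtnf5, at 1.53 ± 0.587 CPM with saline and 0.894 ± 0.1 with DMP. C1ql3, a synaptic organiser, had a log2 fold change of 0.12 (SE 0.0709), C1qtnf1 of -0.25 (SE 0.175) and C1ql1 of -0.06 (SE 0.0846).

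**Figure D4:**
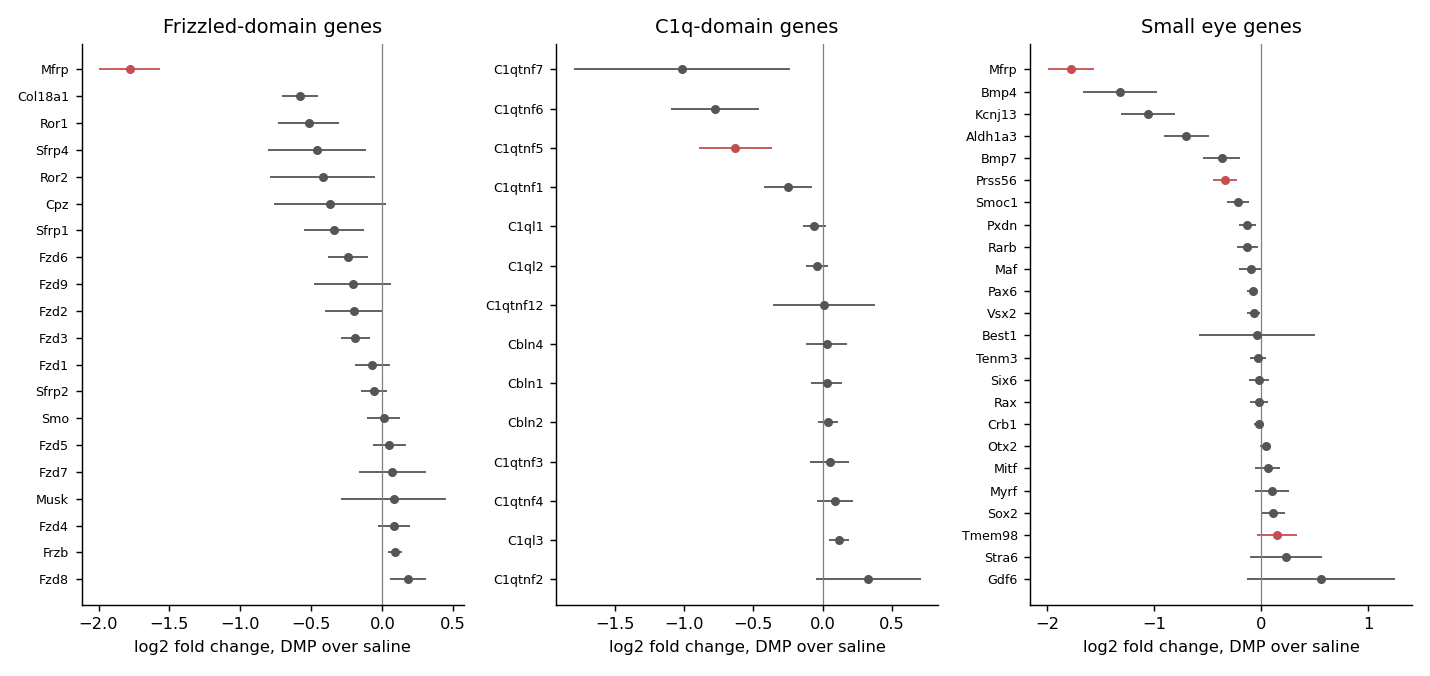
Log2 fold change of DMP over saline (points) with its SE (bars) for tested frizzled-domain genes, C1q-domain genes and small eye genes, with the 4 members in red. Mfrp, chosen by its difference between DMP and saline, lies at -1.78, below the other 19 frizzled-domain genes, which span -0.58 to 0.18. C1qtnf5 at -0.63 lies within the span of its family.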

How the data were processed

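Retinal RNA was sequenced in 3 saline and 3 DMP libraries. The submitters' processing notes name cutadapt 1.9, FastQC and the build mRatBN7.2, while no source used here names the aligner or counter. The authors' deposited count table was treated as estimated counts already rounded, since 673 to 741 genes per library had a value of 4 against 301 to 325 at 3. The deposited FPKM table, computed by the authors, repeats those counts with 0 differences. Library pairs within a group differed beyond sampling noise. The comparison used edgeR 4.0.16 (R 4.3.3) and its quasi-likelihood test, with TMM scaling, a minimum count of 10 (total 15), group as the only term, and Benjamini-Hochberg adjustment over 18571 genes. SE is the absolute log2 fold change over the square root of F. DESeq2 1.42.0, limma-voom (limma 3.58.1), other filters and scaling, a replicate block, FPKM with a pseudocount of 0.1 or 1, and leaving out each library were alternatives. PCR copies could not be told apart, so errors cover the spread between libraries only. Members and lists were chosen with earlier results of these data known. Of 205 list symbols 204 were matched, 1 by another name. Named list genes were those past the threshold, or up to 4 of smallest p with a mean of at least 1 CPM, plus Myrf, Best1 and genes named for their role (Crb1, Glul, Gnat1, Gjd2, Th, Kera, Optc, Mlana), the last group chosen after their values were seen. Cryaa, the most abundant lens gene, and the fibroblast genes Pdgfra, Col1a1 and Col3a1 were also named after their values were seen. RefSeq tables of GRCr8 gave names, chromosomes and upstream sequences. Of the 5 genes most like Tmem98, 1 is not reported here.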

Additional observations from a re-analysis of the deposited data

How the results depend on the processing

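Log2 fold changes of the 4 members kept within 1 SD of the libraries under every alternative run except log2(FPKM + 1), where that of Mfrp was -0.83, the added constant being large beside its FPKM. Leaving out 1 library in turn they ran from -1.96 to -1.46 for Mfrp, -0.80 to -0.30 for C1qtnf5, -0.48 to -0.23 for Prss56 and -0.10 to 0.29 for Tmem98. The number of genes past the threshold was 13 with the stricter filter (fewer genes tested), 45 with the replicate block and 90 with DESeq2, and ran from 0 without DMP 31 to 81 without DMP 33; it was 2 without saline 33 and 9 without DMP 30. The cause was not tested. Whether the numbers 30, 31 and 33 pair the libraries cannot be settled with 3 libraries per group. Deviations from group means correlated at 0.048, 0.0291 and 0.00764 for equal numbers and at -0.0705 to 0.0439 for unequal numbers. Not every library correlated best with its own number. With the replicate block Mfrp was at -1.73 and C1qtnf5 at -0.59. Leaving out 1 library in turn, chosen after seeing the data, within-group correlations ran from -0.563 (without saline 30) to 0.938 for Mfrp with C1qtnf5, -0.616 to 0.946 (without saline 30) for C1qtnf5 with Prss56 and -0.583 (without saline 30) to 0.75 for C1qtnf5 with Tmem98. Without the 2 libraries farthest from the median, Mfrp with C1qtnf5 was at -0.586, but this left 1 saline library at 0 by construction and is no check. The same holds for the other pairs of Mfrp, and for Prss56 with Tmem98, where 1 DMP library was left at 0. C1qtnf5 with Prss56 was then at 0.846, and C1qtnf5 with Tmem98 at -0.00448 on log2(FPKM + 0.1). Leaving out 1 library in turn, list medians ran from -0.22 to -0.05 (without saline 31) for frizzled-domain genes, -0.01 (without saline 31) to 0.03 for C1q-domain genes, -0.33 (without DMP 30) to 0.29 for pigment epithelium, -1.31 (without DMP 30) to -0.24 for melanin, -1.16 to -0.82 for ciliary epithelium, -2.06 (without DMP 31) to -0.22 for lens and -1.83 (without DMP 33) to -1.12 for fibroblast genes. Counts of 74 to 179 limit C1qtnf5.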
